A study of Danio rerio with 9 samples.

Results

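The genes described here are 9 zebrafish genes of vitamin D metabolism and calcium handling, found in the gene table of the study by their symbols, each matching 1 gene, so 9 of the 30628 genes in the table. They are *vdra* and *vdrb*, which encode the vitamin D receptors, *cyp27b1* and *cyp24a1*, the enzymes that make and break down the active hormone, *trpv6*, a calcium entry channel, *atp2b1a* and *atp2b4*, calcium pumps of the plasma membrane, *casr*, the calcium-sensing receptor, and *stc1*, a stanniocalcin. RNA was sequenced from kidneys of wild-type WIK zebrafish aged 12 months, in 4 male and 5 female libraries, with sex as the factor compared. The male libraries are headed M1, M2, pkd1M1 and pkd1M4 in the table and the female libraries F1, F2, F3, F4 and F6. Both libraries headed with pkd1 are also headed as wild type, so they were used as male wild-type libraries, and the results that passed the test among the 9 genes and the pathway lists are also given without them.

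Vitamin D acts after its conversion to the hormone calcitriol. The last activating step is the 1-alpha-hydroxylation carried out by Cyp27b1, which in mammals takes place mainly in the proximal tubule of the kidney, and Cyp24a1 starts the breakdown of both the hormone and its precursor. Calcitriol binds the vitamin D receptor, a nuclear receptor that pairs with retinoid X receptors, and in mammals the receptor strongly induces *CYP24A1* and so limits its own ligand. Calcium crosses an absorbing epithelial cell through an apical channel such as Trpv6 and leaves it by plasma membrane calcium pumps and sodium-calcium exchangers. In bony fish stanniocalcin from the corpuscles of Stannius, small glands lying on the kidney, lowers calcium uptake.

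The libraries held between 24902978 and 52986838 estimated counts, with the highest total in pkd1M1 and the lowest in M1. Levels are given in CPM, estimated counts brought to a common library size with edgeR's TMM method, where 1 CPM corresponded to between 23.1 and 46.8 counts. A count of 0 allows up to 3 counts, or between 0.0641 and 0.130 CPM depending on the library. These limits cover counting error only. They treat the estimated counts as read counts, as do the intervals for counting error given below. Markers are counted as higher or lower in males at an edgeR adjusted p under 0.05. Over all genes tested 7.02% were higher and 6.2% lower, and 5937 of 22148 had an unadjusted p under 0.05. Of the distal tubule markers, 6 of 8 tested were higher in males and none lower. Their summed level was between 1092 and 1831 CPM in males and between 387 and 909 CPM in females. The list includes *trpm7*, which in zebrafish marks the proximal straight tubule, so the count and the sum do not describe distal cells alone. Of the proximal tubule markers, 1 of 9 was higher in males, with sums of 2968 to 4348 CPM in males and 1390 to 4179 CPM in females. F6 had 4179 CPM and the other 4 females 1996 CPM or less, below every male. Of these markers only *slc22a6l* had no overlap between the sexes, with 896 to 1380 CPM in males and 61.7 to 421 CPM in females. Of the 9 markers 3 had a negative log2 fold change, so the sum does not describe every marker. Both tubule lists were present in every library, while the proximal marker *aqp8b* was at 0 throughout and the distal marker *clcn2c* was at 0 in all males. Of the myeloid markers, 4 of 6 were lower in males (1957 to 3641 CPM against 3495 to 5801 CPM in females). None of 9 lymphoid markers passed the edgeR test (6 at an unadjusted p under 0.05), with sums of 74.8 to 160 CPM in males and 189 to 672 CPM in females. Of the oocyte markers 3 of 6 were lower in males, with sums of at most 5.77 CPM in males and of 1545 CPM in F1, against at most 65.6 CPM in the other females. No interrenal (9 tested), erythroid (9), liver (7) or skeletal muscle (6) marker passed the edgeR test, and at an unadjusted p under 0.05 there were 1, 2, 3 and 0. Their summed levels ranged from 13.6 to 987 CPM in males and from 58.1 to 246 CPM in females for the interrenal list, from 11838 to 43641 CPM in males and from 16579 to 52887 CPM in females for the erythroid list, from 116 to 1698 CPM in males and from 322 to 1301 CPM in females for the liver list, and from 17.3 to 354 CPM in males and from 22.8 to 381 CPM in females for the muscle list.

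Of the 9 genes, 7 had enough counts for the comparison of the sexes by the quasi-likelihood method of edgeR, and *vdrb* and *stc1* did not. With a Benjamini-Hochberg adjusted p-value under 0.05 over all 22148 genes tested, *atp2b1a* was higher in males and *cyp24a1* was lower in males. Over all genes 13.2% passed this test, with 7.02% higher and 6.2% lower in males. Of the 2 genes, *cyp24a1* also passed a limit of 1.5 on the absolute log2 fold change, the second limit in the methods of the study, which 6.54% of all genes passed together with the first (3.48% higher and 3.06% lower in males). In 3 of the 9 genes, *trpv6*, *atp2b1a* and *atp2b4*, the lowest male exceeded the highest female, as in 8.42% of all genes tested. In none of them did every male lie below every female, as in 8.06% of all genes. The plot of single libraries shows the 9 genes side by side.

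**Figure D1:**
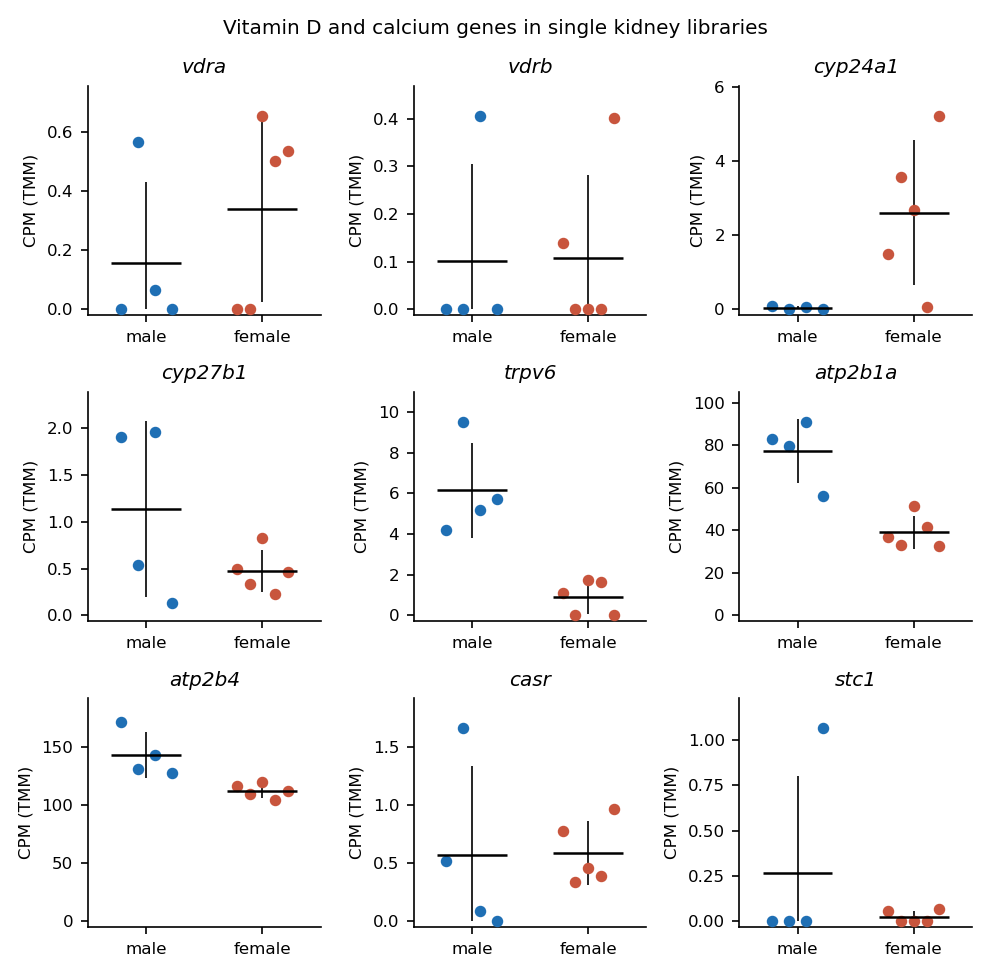
Level of each of the 9 genes in CPM after TMM scaling (y axis, one scale per gene) in every male library (blue, left, in the order M1, M2, pkd1M1, pkd1M4) and female library (red, right, in the order F1, F2, F3, F4, F6). Lines are the mean and the SD of the group, with the SD bar ended at 0, and the groups do not overlap in *trpv6*, *atp2b1a* and *atp2b4*.

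The largest difference by fold was that of *cyp24a1* (ENSDARG00000103277), whose product hydroxylates calcitriol and its precursor for disposal. Positions here are those of the study's table, and the gene lies on chromosome 6 from 55852274 to 55864687. Its estimated counts were 2 (M1), 0 (M2), 3 (pkd1M1) and 0 (pkd1M4), against 54 (F1), 126 (F2), 111 (F3), 3 (F4) and 156 (F6). All 4 males were thus at or under the floor of 3 counts, and so was 1 of the 5 females, F4. In the other 4 females the gene was clearly detected.

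For *cyp24a1* males averaged 0.0377 ± 0.0445 CPM (SD, n = 4) against 2.60 ± 1.96 CPM (SD, n = 5) for females. The fitted log2 fold change was -5.99 (SE 1.45, edgeR adjusted p 0.0217). With so few male counts the fitted size depends on how low values are treated, so the pooled counts are given as well. They were 5 in males and 450 in females, a ratio of male to female CPM of 0.0160. With the estimated counts treated as read counts, the binomial 95% interval for counting error was 0.00516 to 0.0375. The gene passed the filter on low counts through its 4 high female libraries. With either pkd1-headed male left out the adjusted p was 0.0528 (without pkd1M1) and 0.0509 (without pkd1M4), and with both left out it was 0.151 (log2 fold change -5.88), with edgeR. Without F1, F2, F3 or F6 the gene no longer passed the filter and was not tested.

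The counterpart of *cyp24a1*, the activating hydroxylase gene *cyp27b1* (ENSDARG00000045015) on chromosome 11 from 329687 to 339847, was detected in all 9 libraries. It had 1.91 (M1), 0.533 (M2), 1.97 (pkd1M1) and 0.133 (pkd1M4) CPM, against 0.501 (F1), 0.338 (F2), 0.824 (F3), 0.228 (F4) and 0.468 (F6). Of the males, 2 lay above all females and 1 lay below all of them, so the males spanned the whole female range. Males averaged 1.14 ± 0.940 CPM (SD, n = 4) against 0.472 ± 0.225 CPM (SD, n = 5) for females, and the log2 fold change of 1.26 had a 95% interval of -0.80 to 3.32 (edgeR adjusted p 0.446). As a ratio of male to female the interval ran from 0.576 to 9.97, so no direction is read from it given the spread among the male libraries. The counts pooled by sex gave a ratio of 2.55 with a 95% interval for counting error alone of 1.95 to 3.35.

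Both vitamin D receptor genes were near the detection limit. For *vdra* (ENSDARG00000099483), on chromosome 23 from 45822935 to 45825632, the counts were 0 (M1), 17 (M2), 3 (pkd1M1) and 0 (pkd1M4), against 0 (F1), 0 (F2), 27 (F3), 22 (F4) and 16 (F6). Libraries with the gene and libraries without it were found in each sex. Males averaged 0.158 ± 0.274 CPM (SD, n = 4) against 0.338 ± 0.314 CPM (SD, n = 5) for females, with a log2 fold change of -1.08 and a 95% interval of -5.11 to 2.94 (edgeR adjusted p 0.772).

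The gene model of *vdra* in the table is only 2698 bases long, against 51717 bases for *vdrb*. A gene listed as *CABZ01088036.1* ends 1314 bases before *vdra* on the same chromosome, at 45785563 to 45821620, and a table of gene names pairs its identifier, that of *vdra* and that of *vdrb* with the symbol VDR. The counts of *CABZ01088036.1* were 0 in all 4 males, against 8 (F1), 0 (F2), 0 (F3), 11 (F4) and 11 (F6). Added to *vdra*, the counts were 0 (M1), 17 (M2), 3 (pkd1M1) and 0 (pkd1M4), and 8 (F1), 0 (F2), 27 (F3), 33 (F4) and 27 (F6), so the sexes still overlapped.

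For *vdrb* (ENSDARG00000070721), on chromosome 6 from 38954733 to 39006449, counts above 0 were seen in 3 of the 9 libraries, with 19 in pkd1M1, 5 in F1 and 12 in F6. Tested without any filter on low counts it had a log2 fold change of -0.06 with a 95% interval of -5.08 to 4.97 (edgeR adjusted p 0.992). Neither receptor gene was seen in M1, pkd1M4 or F2. Among libraries with any receptor count, *vdra* made up all of them in M2, F3 and F4, none in F1, 13.6% in pkd1M1 and 57.1% in F6. How the counting treated reads shared by both receptor genes is uncertain. No correction for transcript length was applied to these shares, and whether the deposited values already hold one is uncertain. The shares also leave out *CABZ01088036.1*, with which the *vdra* counts were 8 in F1, 33 in F4 and 27 in F6. The share of none in F1 thus depends on where the *vdra* gene model ends.

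In each of the 3 calcium transport genes the lowest male lay above the highest female. For *trpv6*, the apical entry channel, which in zebrafish marks the calcium-absorbing ionocytes of the skin and gills, the levels were 4.21 (M1), 9.50 (M2), 5.17 (pkd1M1) and 5.70 (pkd1M4) CPM, against 1.11 (F1), 0 (F2), 1.74 (F3), 1.62 (F4) and 0.0334 (F6). The lowest male had more than the highest female, and F2 and F6, at counts of 0 and 1, had almost none. Males averaged 6.14 ± 2.32 CPM (SD, n = 4) against 0.902 ± 0.842 CPM (SD, n = 5) for females.

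The log2 fold change of *trpv6* (ENSDARG00000014496), which lies on chromosome 16 from 12294284 to 12319822, was 2.76 (standard error 1.09) with a 95% interval of 0.34 to 5.17. It did not pass the adjustment over all genes (edgeR adjusted p 0.132), and no fit with a library left out brought it under 0.05. With the Wald test of DESeq2 the log2 fold change was 2.75 and the adjusted p 0.0394, so the call depended on the test. Without the pkd1-headed males the log2 fold change was 2.91 (edgeR adjusted p 0.308).

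The pump gene *atp2b1a* (ENSDARG00000012684) encodes the homolog of PMCA1, the widely expressed plasma membrane calcium ATPase that moves calcium out of the cell. It lies on chromosome 4 from 16076719 to 16124419. Its levels were 82.8 (M1), 79.7 (M2), 90.8 (pkd1M1) and 55.9 (pkd1M4) CPM, against 36.7 (F1), 33.0 (F2), 51.5 (F3), 41.4 (F4) and 32.6 (F6). The groups did not overlap, and pkd1M4 and F3 lay nearest to each other.

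For *atp2b1a* males averaged 77.3 ± 15.0 CPM (SD, n = 4) against 39.0 ± 7.80 CPM (SD, n = 5) for females, a log2 fold change of 0.99 (SE 0.20, edgeR adjusted p 0.00995) or 1.98-fold. It passed the test with any of the 9 libraries left out, and without the pkd1-headed males, where the log2 fold change was 1.06 (edgeR adjusted p 0.0411). Its paralog *atp2b1b*, on chromosome 25 from 19609713 to 19666107, averaged 14.5 ± 12.1 CPM (SD, n = 4) among males against 11.4 ± 9.59 CPM (SD, n = 5) among females, with a log2 fold change of 0.34 and a 95% interval of -1.31 to 1.99. The share of *atp2b1a* in the counts of the pair was 92.2% (M1), 86.2% (M2), 73.9% (pkd1M1) and 90.2% (pkd1M4), against 71.2% (F1), 80.0% (F2), 66.3% (F3), 97.4% (F4) and 82.6% (F6). These shares overlapped between the sexes, and no correction for transcript length was applied to them.

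For *atp2b4* (ENSDARG00000044902), the homolog of PMCA4, the levels were 172 (M1), 131 (M2), 144 (pkd1M1) and 128 (pkd1M4) CPM, against 116 (F1), 110 (F2), 120 (F3), 104 (F4) and 113 (F6). Every male lay above every female, M2 and pkd1M4 by the least. Males averaged 144 ± 19.9 CPM (SD, n = 4) against 113 ± 6.01 CPM (SD, n = 5) for females. The gene lies on chromosome 11 from 22920587 to 23080970. Although the groups did not overlap, the log2 fold change of 0.35, with a 95% interval of 0.03 to 0.67, did not pass the adjustment (edgeR adjusted p 0.152). The plot of fold changes sets its narrow interval beside the wide ones of the genes with few counts.

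**Figure D2:**
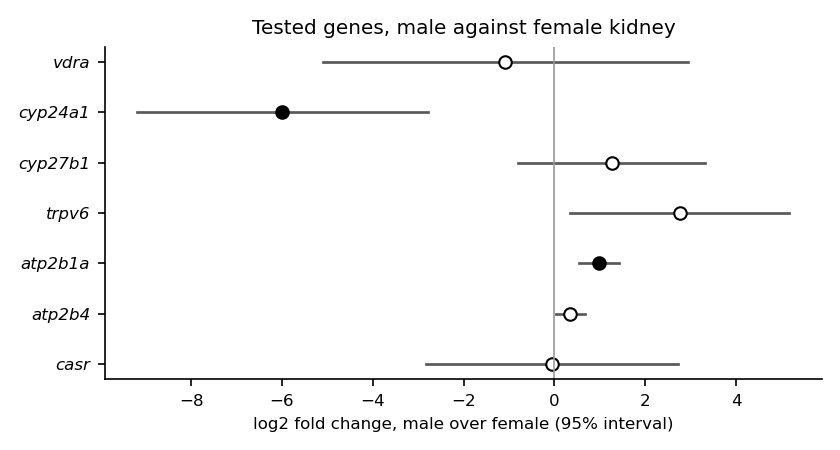
Log2 fold change, male over female, of the 7 tested genes (x axis) with its 95% interval from edgeR's quasi-likelihood test. Filled circles passed an adjusted p of 0.05 over all genes tested, which were *cyp24a1* at -5.99 and *atp2b1a* at 0.99, and the interval of *vdra* runs from -5.11 to 2.94.

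The values of *trpv6* and *atp2b1a* stood beside higher distal tubule markers in males. The genes of the distal list that passed the test were *slc12a1*, *slc12a3*, *clcnk*, *kcnj1a.1*, *trpm7* and *gata3*. Their log2 fold changes ran from 1.21 (*slc12a3*) to 2.12 (*kcnj1a.1*). Of these *trpm7*, at 1.85, marks the proximal straight tubule in zebrafish. It supplied 360 of 1092 CPM in pkd1M1, the lowest male sum, and 167 of 909 CPM in F6, the highest female sum. Without *trpm7* the sum of pkd1M1 would lie below that of F6. Of the 9 proximal markers tested 6 had a positive log2 fold change and 3 a negative one, such as *lrp2a* at -0.42. At an unadjusted p under 0.05 there were 3, beside 5937 of all 22148 genes tested. They were *slc22a6l*, which passed the adjustment at 2.66, and *slc20a1a* and *pdzk1*, which did not, at 1.57 and 0.83. In whole kidneys fewer cells of a type and less RNA per cell cannot be told apart. F6 had the highest sums of both tubule lists among females, at 909 CPM for the distal and 4179 CPM for the proximal markers. Its level of *atp2b1a* was 32.6 CPM and its *trpv6* count 1. F2, with sums of 535 and 1866 CPM, had 33.0 CPM of *atp2b1a* and a *trpv6* count of 0. Both libraries were picked after their values were seen. The part of the tubule markers in the results for *trpv6* and *atp2b1a* was not tested. The plot of tubule markers shows these levels by library.

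**Figure D3:**
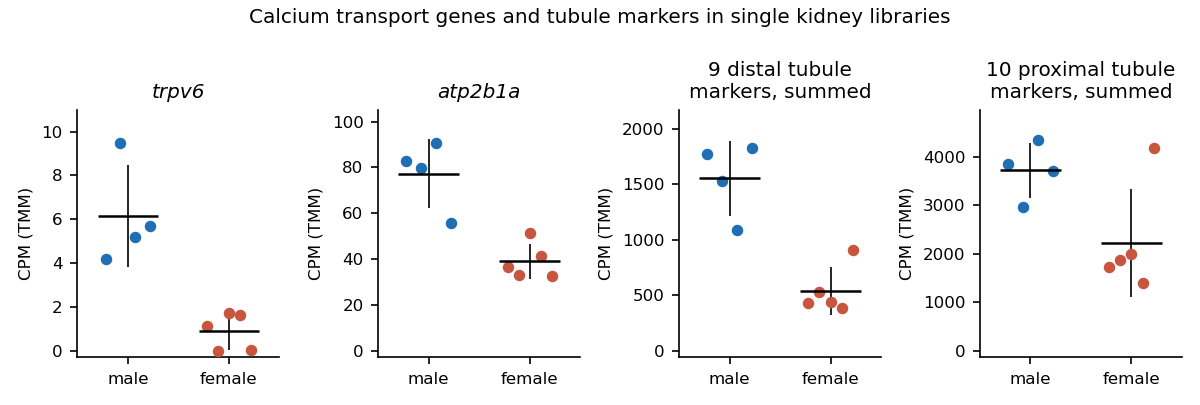
CPM after TMM scaling (y axis) of *trpv6*, *atp2b1a* and the sums of 9 distal and 10 proximal tubule markers in male libraries (blue, left) and female libraries (red, right), in the order M1, M2, pkd1M1, pkd1M4 and F1, F2, F3, F4, F6. Lines are the mean and SD. The sums of the distal list, *trpm7* included, were 1092 CPM or more in males and 909 CPM or less in females. Without *trpm7*, a proximal straight tubule gene in zebrafish, the sum of pkd1M1 would lie below that of F6.

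The calcium-sensing receptor gene *casr* (ENSDARG00000013649), on chromosome 5 from 67768162 to 67783593, had few counts. They were 12 (M1), 50 (M2), 4 (pkd1M1) and 0 (pkd1M4), against 28 (F1), 12 (F2), 19 (F3), 17 (F4) and 29 (F6). All females lay between the extremes of the males, with M2 the highest and pkd1M4 the lowest library of all. Males averaged 0.568 ± 0.767 CPM (SD, n = 4) against 0.587 ± 0.274 CPM (SD, n = 5) for females, and the log2 fold change of -0.05 had a 95% interval of -2.82 to 2.73 (edgeR adjusted p 0.987). Its sign depended on which libraries were used, and no direction is read from it.

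The stanniocalcin gene *stc1* (ENSDARG00000003303), on chromosome 8 from 50322769 to 50346246, was at or under 3 counts in 8 of the 9 libraries. The exception was pkd1M4 with 32 counts, or 1.07 CPM, while the other males were at 0 and F1 and F6 had 2 counts each. Tested without a filter it had a log2 fold change of 3.28 with a 95% interval of -1.74 to 8.30 (edgeR adjusted p 0.409). The male value thus came from 1 library.

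Another stanniocalcin gene, *stc1l*, for which RefSeq gives *stc1* as a further name, lies on chromosome 10 from 42677891 to 42685512 and was abundant but uneven. Its counts were 2498 (M1), 3632 (M2), 975 (pkd1M1) and 9166 (pkd1M4), against 773 (F1), 13338 (F2), 2703 (F3), 0 (F4) and 1665 (F6). Within females the values ran from none to the highest of all libraries. Males averaged 139 ± 120 CPM (SD, n = 4) against 104 ± 155 CPM (SD, n = 5) for females, and the log2 fold change of 0.42 had a 95% interval of -2.56 to 3.40. In pkd1M4, the library with the *stc1* counts, *stc1* made up 0.348% of the counts of *stc1* and *stc1l*, with no length correction applied.

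The other genes of the pathways were described from 4 lists. Over all genes tested, 7.02% passed as higher and 6.2% as lower in males, the shares beside which the counts of each list stand. In the list of calcium hormones and their receptors 2 of 12 tested genes were higher in males and none was lower, with a median log2 fold change of 0.56 against -0.03 over all genes tested. The first was *stc2a*, a stanniocalcin 2 gene, with 231 (M1), 535 (M2), 1281 (pkd1M1) and 918 (pkd1M4) CPM, against 31.1 (F1), 17.7 (F2), 77.1 (F3), 20.4 (F4) and 38.5 (F6). Even the lowest male was far above the highest female. Its log2 fold change was 4.33 (SE 0.57, edgeR adjusted p 0.00125), and it passed with any library left out.

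The second was *igfbp5b*, a gene for an insulin-like growth factor binding protein, with 307, 202, 300.3 and 438 CPM in M1, M2, pkd1M1 and pkd1M4, against 139, 83.1, 126, 54.5 and 202 CPM in F1, F2, F3, F4 and F6. M2 and F6 had almost the same level, so the groups overlapped. Its log2 fold change was 1.37 (SE 0.36, edgeR adjusted p 0.0296), and it passed in 3 of the 9 fits with a library left out. The product of *igfbp5b* is neither a calcium hormone nor a receptor of one. The count and the median of the list therefore do not describe hormones and receptors alone. The stanniocalcin 2 paralog *stc2b* had a log2 fold change of -1.41 (edgeR adjusted p 0.196). The parathyroid hormone genes *pth1b* and *pth4*, the receptor gene *pth1r* and *gcm2*, a transcription factor of parathyroid tissue in mammals, were at 0 in all 9 libraries. The klotho gene *kl*, whose product is the co-receptor of Fgf23, was at 29.5 CPM in males and 18.2 CPM in females (log2 fold change 0.70, adjusted p = 0.201).

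**Figure D4:**
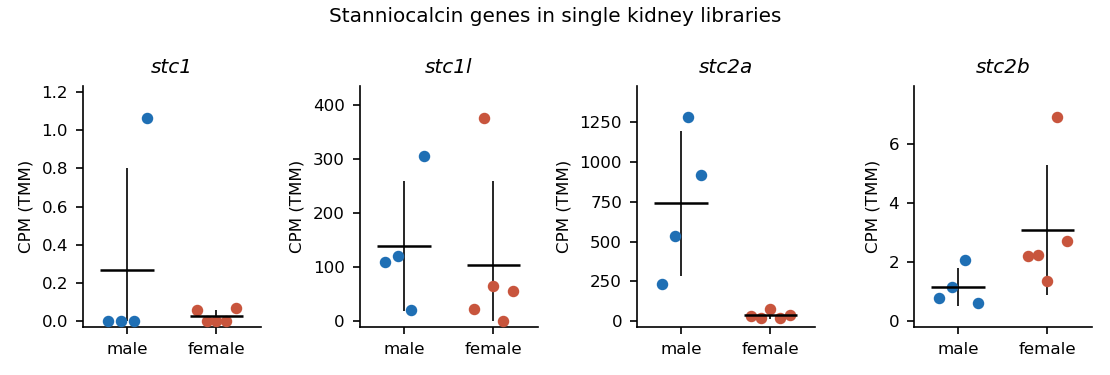
CPM after TMM scaling (y axis, one scale per gene) of the 4 stanniocalcin genes in male libraries (blue, left) and female libraries (red, right), in the order M1, M2, pkd1M1, pkd1M4 and F1, F2, F3, F4, F6, with the mean and SD as lines and the SD bar ended at 0. The sexes do not overlap in *stc2a*, where males have 231 CPM or more and females 77.1 CPM or less, and they overlap in *stc1*, *stc1l* and *stc2b*.

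The median log2 fold change was -0.17 in the list of calcium pumps, exchangers and channels. Of its 22 tested genes 2 were higher and 2 were lower in males, beside 7.02% and 6.2% of all genes tested. The higher ones move calcium out of the cell across the plasma membrane. They were *atp2b2*, another pump of the *atp2b1a* family, with a log2 fold change of 2.38 (SE 0.62, edgeR adjusted p 0.0307), and the sodium-calcium exchanger gene *slc8a1b*, with 1.47 (SE 0.32, edgeR adjusted p 0.0140). The level of *atp2b2* was between 2.60 and 7.16 CPM in males and between 0.365 and 1.84 CPM in females, and that of *slc8a1b* between 6.40 and 11.3 CPM in males and between 2.57 and 4.65 CPM in females.

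The genes lower in males act at inner membranes. They were *slc8b1*, for the mitochondrial sodium-calcium exchanger, with a log2 fold change of -2.49 (SE 0.63, edgeR adjusted p 0.0270), and *stim1a*, for the calcium sensor of the endoplasmic reticulum that opens store-operated channels, with -0.54 (SE 0.15, edgeR adjusted p 0.0339). The level of *slc8b1* was between 0.233 and 2.56 CPM in males and between 4.28 and 12.9 CPM in females. For *stim1a* it was between 69.1 and 77.5 CPM in males and between 89.4 and 116 CPM in females. In these 4 genes the sexes did not overlap. The same held for 5 of the 22 tested genes of the list, these included, and for 16.5% of all genes tested. With 2 genes passing in each direction, no pattern by membrane is read from the list. With a library left out *slc8a1b* passed in 8 of 9 fits, *slc8b1* in 5, and *atp2b2* and *stim1a* in 2 each. Without pkd1M1 none of the 4 passed. The part of the myeloid and tubule markers, which also differed between the sexes, was not tested.

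The median log2 fold change of 9 tested genes known from mammals as targets of the vitamin D receptor was 0.46. Of them 1 was higher in males and none was lower, beside 7.02% and 6.2% of all genes tested. It was *cdkn1a*, which encodes the cell cycle inhibitor p21, with 9.71 (M1), 10.4 (M2), 8.76 (pkd1M1) and 8.84 (pkd1M4) CPM, against 1.59 (F1), 1.72 (F2), 1.70 (F3), 1.66 (F4) and 1.17 (F6). The libraries of each sex lay close together. The log2 fold change was 2.59 (SE 0.30, edgeR adjusted p 0.000746), and it passed with any library left out. This direction is opposite to that of *cyp24a1*, and the activity of the receptor was not tested. The calbindin gene *calb1*, a target in mammalian intestine and kidney, was too low to be tested, and the phosphate transporter gene *slc34a1b* had a log2 fold change of 1.76 (edgeR adjusted p 0.0503). It passed with RLE size factors, with DESeq2, with at least 10 counts in every library, without F6, and in both fits of the 4 libraries M1, M2, F1 and F2.

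Among 16 tested genes of vitamin D supply and receptor partners, none passed with edgeR (1 at an unadjusted p under 0.05, *rxraa*) and 1, also *rxraa*, passed with DESeq2, and the median log2 fold change was -0.11. The 25-hydroxylase gene *cyp2r1* had 0.347 (M1), 0.0333 (M2), 1.13 (pkd1M1) and 2.03 (pkd1M4) CPM, against 6.10 (F1), 0.395 (F2), 0 (F3), 0.0228 (F4) and 0.601 (F6), so its female mean of 1.42 CPM, against 0.887 CPM for males, came mainly from F1 and no direction is read from it. The uptake receptor genes *lrp2a* and *cubn*, whose products take up the vitamin D binding protein in the mammalian proximal tubule, were at 333 and 286 CPM in males and at 447 and 267 CPM in females. The retinoid X receptor gene *rxraa* was below every female library in every male library, at 2.79 CPM in males and 7.02 CPM in females, with a log2 fold change of -1.33 that did not pass (edgeR adjusted p 0.107). Without the pkd1-headed males, of the 7 genes of the lists that had passed, *stc2a* (log2 fold change 3.37, edgeR adjusted p 0.0194) and *cdkn1a* (2.68, 0.0133) still passed and the other 5 did not (edgeR adjusted p between 0.126 and 0.231). The plot of pathway lists places these genes against the range of all genes tested.

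**Figure D5:**
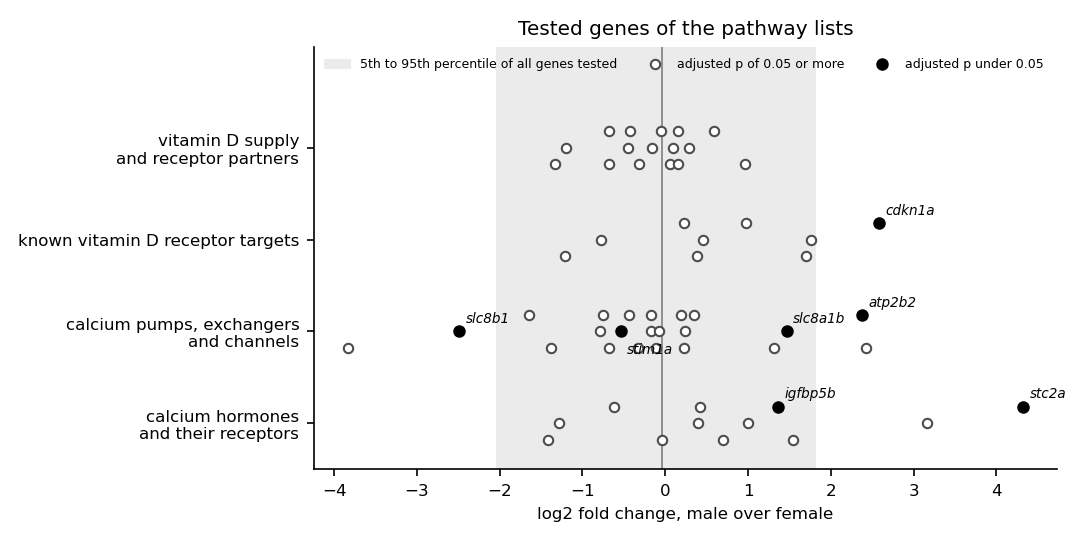
Log2 fold change, male over female (x axis), of each tested gene in the 4 pathway lists, with points of a list staggered in height only to keep them apart. Filled and named circles had an adjusted p under 0.05 in edgeR's quasi-likelihood test, with *stc2a* at 4.33 the highest of them and *slc8b1* at -2.49 the lowest, the grey band holds the 5th to 95th percentile of all genes tested and the vertical line is their median.

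For the genes that passed the test, the genes with the most similar profile over the 9 libraries were found by the root mean square difference of log2 CPM after centring each gene. For *atp2b1a*, whose own log2 CPM had an SD of 0.58, they were *wbp2*, *c1galt1c1* and *psmb7*, with differences of 0.16, 0.17 and 0.17. For *cyp24a1*, with an SD of 2.72, they were *dlgap1b*, *si:dkeyp-72h1.1* and *si:dkeyp-7a3.1* (ENSDARG00000090429, one of the genes with that symbol), with differences of 0.91, 0.95 and 0.98. The 3 genes nearest *atp2b1a* had log2 fold changes of 1.03, 1.05 and 0.79 and passed the test. Those nearest *cyp24a1* did not pass it (edgeR adjusted p 0.0775, 0.0636 and 0.106). All were picked for profiles like that of a gene that differed between the sexes in the same libraries. Their fold changes follow largely from that choice and are no separate result. The profiles were compared over all genes tested, as a description.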

How the data were processed

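Kidney RNA of 4 male and 5 female libraries was analysed, grouped by sex. The deposited table holds estimated counts, which the authors obtained with Kallisto and tximport by bringing TPM values up to the size of each library. They are whole numbers with no scaling between libraries. The headers read scaledTPM and the methods name length-scaled TPM, so whether the values are corrected for transcript length is uncertain. Levels were therefore not compared between genes, apart from shares within pairs of related genes, to which no length correction was applied. The methods name GRCz11 and the labels GRCz10, and coordinates are those of the table. The columns pkd1M1, pkd1M4 and F6 single out no sample label and carry only their sex. The paper reports that 5 sets of kidneys were taken from each sex. The labels do not link the libraries to these sets or to separate fish. The p-values therefore measure only the spread between these libraries, which may be technical.

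After filterByExpr and TMM, the sexes were compared by glmQLFTest (edgeR 4.0.16, R 4.3.3), called the edgeR test, with Benjamini-Hochberg adjustment over 22148 genes and a standard error from the F statistic. The 9 genes and the lists were chosen with earlier results of these data known. Named from each list were the genes with an adjusted p under 0.05, at most 4 in each direction, and, for each of the 9 that passed, the 3 genes most like it (log2 CPM, prior count 2). Other genes named were chosen after their values were seen. Of the listed genes, *pth1ra* and *pth1rb* were matched as *pth1r* and *pth3r* by synonym, and *cyp27a1.1*, *cyp27a1.3*, *rxrga*, *cyp11a1.1* and *mfap4.1* were not matched. Alternatives were RLE size factors, DESeq2 1.42.0, other filters, each library left out, males headed without pkd1, and the replicate number as a block. The fit of the same 4 libraries without the block was added after seeing the data. The tests were tried on simulated data. Within each sex the counts of any pair of libraries varied beyond counting noise (chi-square over degrees of freedom 82.5 or more), so none was a second copy of the same counts. Repeat preparations from the same RNA were not tested for.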

Additional observations from a re-analysis of the deposited data

Results flagged for a closer look

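In 4 of 24 groups of libraries listed for the 9 genes and for *CABZ01088036.1*, *stc1l* and *atp2b1b*, 1 library lay far from the rest of its sex by Dixon's test, where chance flags about 1 in 20 groups. The males of *CABZ01088036.1*, all at 0, are counted in the 24 but could not be examined. For *vdra* in males M2 had 0.567 CPM and the next male 0.0641 CPM. For *vdrb* in males pkd1M1 had 0.406 CPM and the other males 0. For *stc1* in males pkd1M4 had 1.07 CPM and the other males 0. For *stc1l* in females F2 had 376 CPM and the next female 65.5 CPM. The first 3 rest on 32 counts or fewer. For *vdrb* and *stc1*, where the other males were all at 0, any count above 0 would have met the criterion, so the chance rate does not apply to them.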

How the results depend on the processing

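The 2 genes of 9 that passed became 0 in the 4 libraries M1, M2, F1 and F2, with or without the replicate number as a block. They became 1 with at least 10 counts in every library, a filter that left *cyp24a1* untested. They became 1 with males headed without pkd1, 1 with the fold change limit as well, and 1 to 2 when each library was left out. With DESeq2 there were 3, with 10 genes of the pathway lists and 4188 of all genes. The number of all genes passing, 2928, ranged from 1948 (without pkd1M1) to 3343 with a library left out. It was 859 with males headed without pkd1, 905 with the block, 363 in the same 4 libraries without it, and 1448 with the fold change limit. For the pathway lists the 7 genes passing became 2 to 9 with a library left out, with 2 without pkd1M1. They became 2 with males headed without pkd1, 3 with the block, 2 without it in the same libraries and 4 with the fold change limit. The 3 were *atp2a1*, *slc34a1b* and *stc2a*, and the 2 without the block were *slc34a1b* and *stc2a*. Of the 7 genes only *stc2a* thus passed in these fits of 4 libraries. For *cdkn1a* the edgeR adjusted p was 0.0881 with the block and 0.0724 without it.

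The log2 fold change of *cyp24a1* did not pass with males headed without pkd1 (-5.88), with the block (-5.98) or in its 4 libraries without it (-5.82). With a library left out it ranged from -6.55 to -5.61, passing in 3 of 5 fits, and in the fits without F1, F2, F3 or F6 it fell under the filter and was not tested. That of *atp2b1a* was 1.22 in both fits of 4 libraries, where it did not pass. The sign of *casr* turned without pkd1M1 or pkd1M4 and without F1 or F6, with a range of -1.55 to 0.36 when a library was left out, and it was 0.89 with males headed without pkd1, 0.86 with the block and 0.96 without it. Fewer libraries entered these fits. The difference of M1 from M2 was uncorrelated over genes with that of F1 from F2 (r = -0.000325). Only 2 numbers are shared by the sexes, so this cannot decide whether the numbers pair the libraries. At this depth *vdra*, *vdrb* and *stc1* in most libraries and *cyp24a1* in males were at or under the floor of 3 counts. Among males the counts ran from 4 to 92 for *cyp27b1* and from 0 to 50 for *casr*.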
